A study of Mus musculus with 10 samples.

Results

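Rybp-null mouse cultures at day 14 of cardiac differentiation were compared with Rybp-null cultures at day 8. This interval was covered by 4 of the 10 RNA-seq libraries of the study, 2 at day 14 and 2 at day 8, taken from the genotype and day given in the sample labels. Mouse embryonic stem (ES) cells carrying a null mutation of Rybp, on a 129x1 x 129S1 strain background, were differentiated through embryoid bodies formed in hanging drops, and total RNA of whole dishes was sequenced. For context, wild type cultures of the same background were sampled at day 14 and at day 8 (2 libraries each), and Rybp-null and wild type ES cells at day 0 (1 library each). The labels do not say how many null clones were used or whether replicates came from separate cultures. The p-values below rest on a spread between replicates estimated over the groups with 2 libraries, wild type included. That spread may be technical.

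RYBP partners the RING1 ubiquitin ligases and is a core subunit of variant Polycomb repressive complex 1 (PRC1), which places ubiquitin on histone H2A at developmental genes. During embryoid body differentiation, mesoderm gives rise to cardiomyocytes, smooth muscle, endothelium, fibroblast-like stroma and a first wave of blood. Primitive red cells, which carry embryonic globins, and primitive macrophages belong to that wave, and the epicardium is a mesothelial sheet of the heart that makes retinoic acid and matrix-producing cells.

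Rybp itself was near 0 in all 4 null libraries, with 4 and 2 counts at day 14, against 2 and 1 counts at day 8. It was at 19.5 and 23.5 CPM in the wild type libraries of day 14, against 38.3 and 43.1 CPM in those of day 8. Levels are in CPM, counts scaled to a common library total, always for replicate 1 and then replicate 2 of a group. The null libraries held 3311037 and 3951179 counts at day 14 and 4164476 and 3366320 counts at day 8, within the 3028153 to 6890792 of the series, so 1 count was worth 0.242 to 0.288 CPM in these 4 libraries. Replicates correlated at a Spearman coefficient of 0.961 at day 14 and 0.957 at day 8 across genes, and differed by more than counting noise. Chi-square per gene against counting noise was 10.4 at day 14 and 16.9 at day 8. In wild type replicates it was lower, 4.80 and 3.52. The shared estimate of the spread covers both genotypes, so it may be too small for the null replicates and their p-values too low.

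The labels call these samples ES-derived cardiac cultures, and most cardiomyocyte markers were low in them. The summed level of 9 cardiomyocyte markers was 171 and 243 CPM in null libraries at day 14, against 105 and 59.0 CPM at day 8. Tnnt2 and Ttn, given below, held most of this sum in each of these libraries. Of the 7 markers tested 1 was called, Ttn, and that call depended on single libraries, as given below. In wild type libraries the sum was 1007 and 885 CPM at day 14, against 2495 and 2053 CPM at day 8. Of these 9 markers Nkx2-5 had 0 counts in null libraries at day 14, and Myl7, Nkx2-5 and Nppa had 0 at day 8. The 6 fibroblast markers summed to 13333 and 13530 CPM in null libraries at day 14, against 8799.8 and 4836 CPM at day 8. Of these 6, 3 were called higher and 1 lower: Postn, a matricellular protein, was at 947 and 383 CPM at day 14, against 2568 and 2026 CPM at day 8 (adjusted p = 0.0192 for a log2 fold change of −1.79, SE 0.37). Skeletal muscle markers had 0 counts at day 14.

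**Figure D1:**
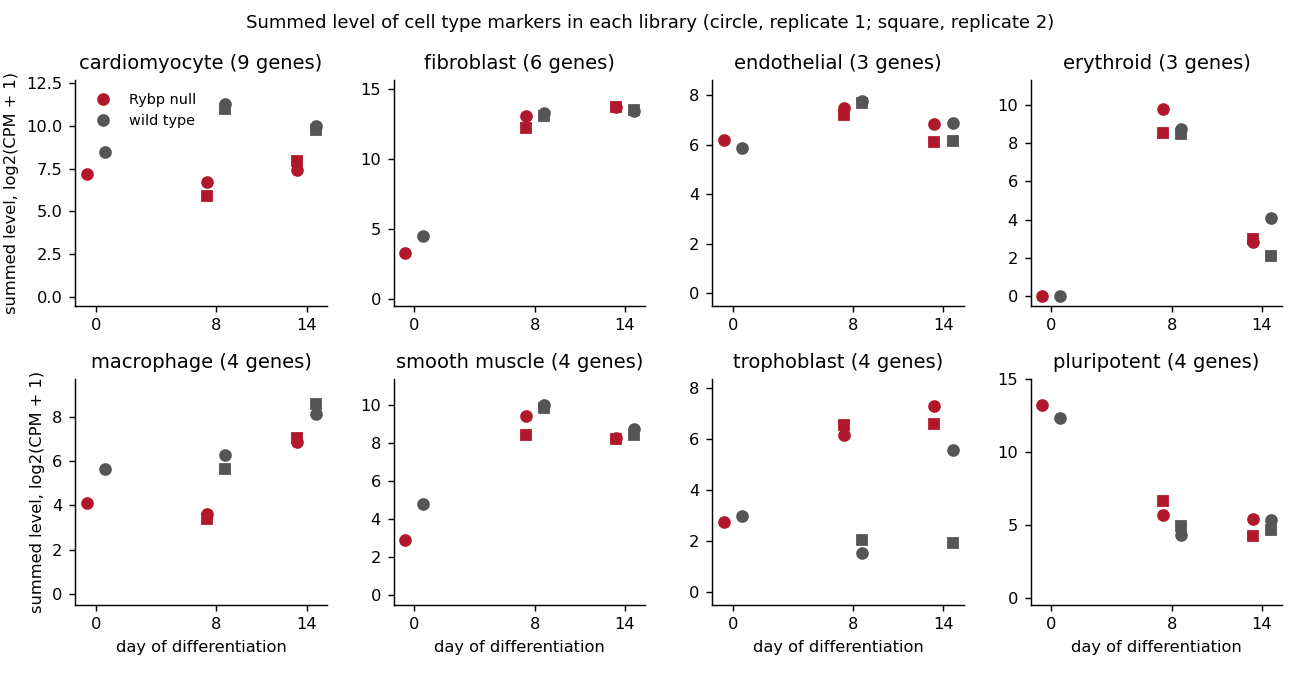
Summed level of cell type markers in each library, log2(CPM + 1), by day of differentiation, with Rybp null in red and wild type in grey. Between days 8 and 14 the null libraries lie lower for erythroid markers and higher for macrophage markers, while cardiomyocyte markers stay below those of the wild type.

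Most tested erythroid genes (14 of 17) and mitosis genes (31 of 35) were lower in null cultures at day 14 than at day 8. Most macrophage genes (17 of 22) and interferon response genes (15 of 27) were higher, with none of either list called lower. Of 31 matricellular genes 13 were higher and 2 lower, and of 17 epicardial genes 8 were higher and 2 lower. Over all 15819 genes that passed the low-count filter, 678 were higher at day 14 (4.29%) and 539 lower (3.41%), 1217 in all (7.69%). Of these, 586 were higher and 375 lower by at least 2-fold, and the median log2 fold change over all genes tested was −0.0096. Calls rest on an adjusted p under 0.05 from edgeR's quasi-likelihood test. All 1217 called genes had day 14 and day 8 libraries that did not overlap, as did 46.6% of all genes tested. Without null day 14 replicate 2 the count was 613, and over the other 7 fits that each leave out 1 library of days 8 and 14 it was 889 to 1243.

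**Figure D2:**
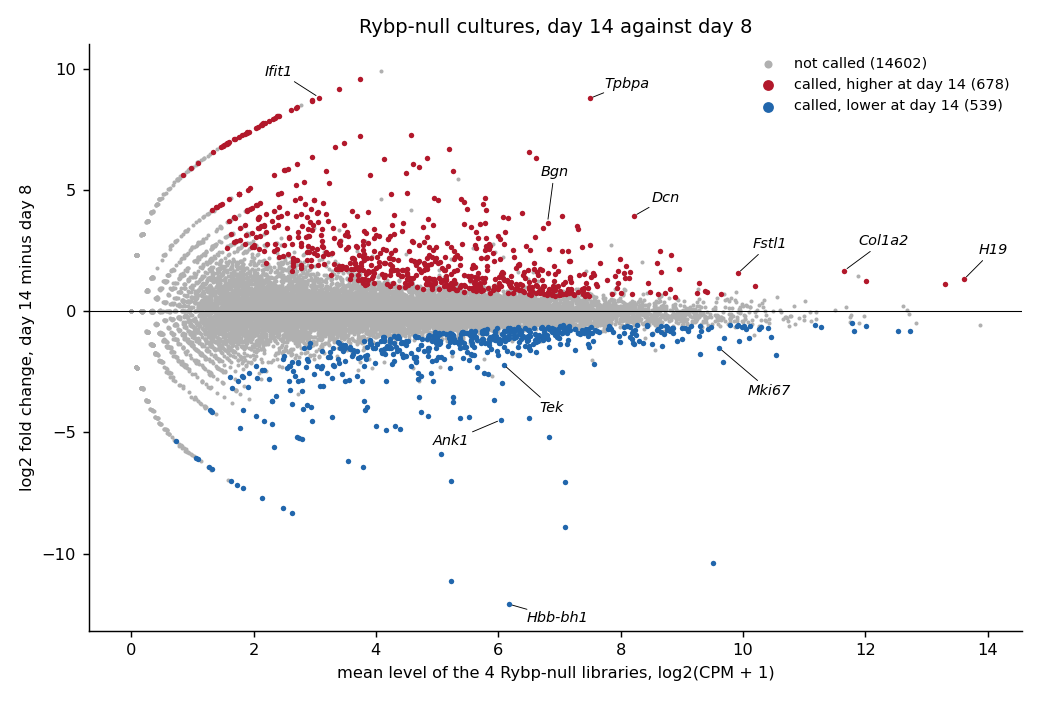
Log2 fold change of day 14 minus day 8 in Rybp-null cultures for each gene tested, against its mean level in the 4 null libraries, log2(CPM + 1). Called genes are red where higher (678) and blue where lower (539); arcs at the left are genes with very few counts in a group, whose fitted change depends on the prior count.

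**Figure D3:**
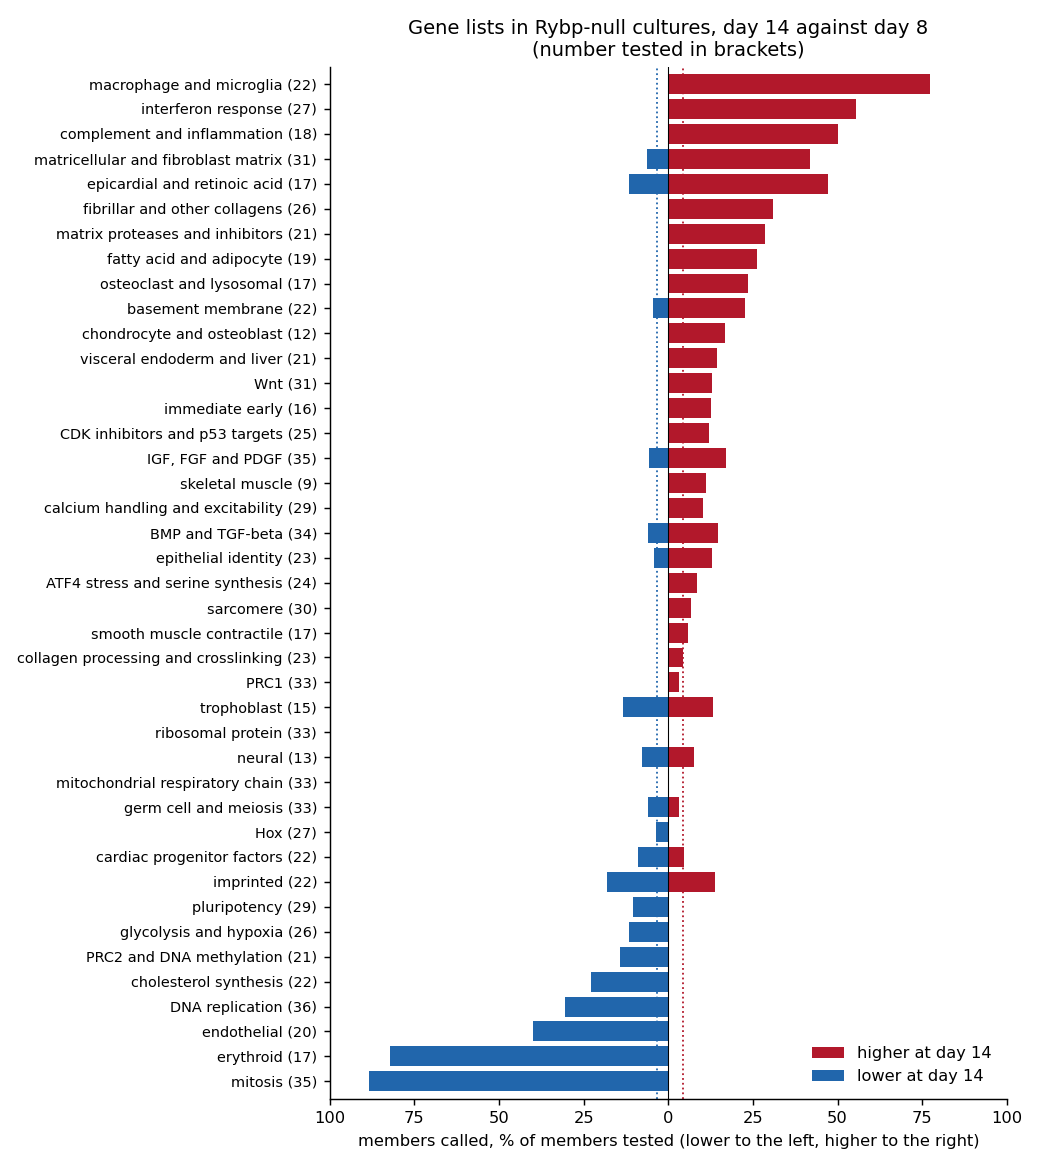
Share of the tested members of 41 gene lists called higher (red, to the right) or lower (blue, to the left) at day 14 than at day 8 in Rybp-null cultures. Dotted lines mark the shares over all genes tested, 4.29% higher and 3.41% lower; mitosis and erythroid genes stand at the lower end, macrophage and interferon genes at the upper.

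Most embryonic red cell transcripts were close to 0 in null cultures by day 14. Of the erythroid genes, 17 of the 18 in the table passed the low-count filter. Erythroid members called were 0 higher and 14 lower, with 3 not called and a median log2 fold change of −5.18 (−4.73 with genes at 0 counts in a group held at their bound) in null cultures, against 0 higher, 12 lower and a median of −4.68 in the wild type interval. Hbb-bh1, an embryonic beta-like globin, was at 0 and 0 CPM at day 14, against 156 and 128 CPM at day 8 (at least 363-fold lower, adjusted p = 1.45e-05). Its neighbour Hbb-bh0 was at 0 and 0 CPM at day 14, against 91.6 and 54.1 CPM at day 8 (at least 189-fold lower, adjusted p = 3.42e-05). The embryonic globins Hbb-y (−8.92, SE 0.86, adjusted p = 0.000721) and Hba-x (−10.38, SE 1.40, adjusted p = 0.0122) fell as well, the first to 0.845 and 0.247 CPM, against 414 and 127 CPM at day 8. Globin genes have near-identical copies, so the split of reads among them is uncertain. Further named genes of the red cell skeleton and membrane, some of them outside that list, were lower. Ank1, the ankyrin that ties spectrin to the membrane, was at 5.91 and 5.19 CPM at day 14, against 138 and 111 CPM at day 8 (adjusted p = 2.98e-05 for a log2 fold change of −4.48, SE 0.33). Beta-spectrin Sptb (−4.74, SE 0.50, adjusted p = 0.000266) and the anion exchanger Slc4a1 (−4.86, SE 0.55, adjusted p = 0.000362) were lower too. For each gene named here both day 14 libraries lay far below both day 8 libraries. In these bulk samples fewer cells of a type and less RNA per cell cannot be told apart. Hba-x (−9.31, adjusted p = 0.0918) no longer passed without null day 14 replicate 2.

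Transcription factors and heme genes of red cells moved the same way. Klf1, a master activator of red cell genes, was at 0 and 0 CPM at day 14, against 12.3 and 8.35 CPM at day 8 (at least 26.6-fold lower, adjusted p = 0.00133). Gata1, which drives erythroid differentiation, was at 0 and 0.494 CPM at day 14, against 38.4 and 12.7 CPM at day 8 (101-fold lower, counting interval 27.7 to 842, adjusted p = 0.00141). Nfe2 was at 0 and 1.98 CPM at day 14, against 76.2 and 51.5 CPM at day 8 (adjusted p = 0.000207 for a log2 fold change of −5.89, SE 0.60), and Hemgn fell to 0.563 and 0.494 CPM, against 14.02 and 11.8 CPM at day 8. Tal1, needed for the first blood and also active in endothelium, was at 2.25 and 4.94 CPM at day 14, against 87.8 and 66.8 CPM at day 8 (adjusted p = 0.000154 for a log2 fold change of −4.39, SE 0.43). The heme synthesis enzyme Alas2 was at 7.04 and 7.17 CPM at day 14, against 59.96 and 44.3 CPM at day 8 (adjusted p = 0.000207 for a log2 fold change of −2.87, SE 0.30). The mitochondrial iron importer Slc25a37 was at 43.1 and 34.4 CPM at day 14, against 227 and 220.2 CPM at day 8 (adjusted p = 0.000136 for a log2 fold change of −2.53, SE 0.24). These last 2 fell by smaller factors than the globins and stayed above 7 CPM in both day 14 libraries. The 3 erythroid markers fixed for naming cell types summed to 6.19 and 6.92 CPM at day 14, against 892 and 372 CPM at day 8.

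Endothelial transcripts fell in part. Of the endothelial genes, 20 of the 24 in the table passed the low-count filter, and 40% of those were called, against 7.69% of all genes tested. Endothelial members called were 0 higher and 8 lower, with 12 not called and a median log2 fold change of −2.07 in null cultures, against 0 higher, 4 lower and a median of −1.29 in the wild type interval. Tek, the angiopoietin receptor, was at 19.7 and 27.9 CPM at day 14, against 116 and 104 CPM at day 8 (adjusted p = 0.000154 for a log2 fold change of −2.20, SE 0.22). Erg, an endothelial transcription factor, was at 8.73 and 5.68 CPM at day 14, against 47.9 and 36.6 CPM at day 8 (adjusted p = 0.000628 for a log2 fold change of −2.56, SE 0.32). Pecam1, a junction protein, was at 11.3 and 7.41 CPM at day 14, against 43.04 and 34.5 CPM at day 8 (adjusted p = 0.00122 for a log2 fold change of −2.06, SE 0.29). Emcn, a sialomucin of veins and capillaries, was at 0.282 and 0 CPM at day 14, against 12.1 and 3.74 CPM at day 8 (62.9-fold lower, counting interval 10.9 to 2523, adjusted p = 0.00489), and the receptor Tie1 was at 0 and 1.24 CPM at day 14, against 12.6 and 6.91 CPM at day 8 (adjusted p = 0.011 for a log2 fold change of −3.85, SE 0.79). Pecam1, Tek and Erg stayed measurable in both day 14 libraries, whereas Emcn had 1 count in these 2 libraries together. The 3 endothelial markers summed to 114 and 67.5 CPM at day 14, against 180.1 and 145 CPM at day 8, with 1 of 3 called, Pecam1. Of the others Cdh5, the endothelial cadherin, was at 55.7 and 38.1 CPM at day 14, against 55.1 and 38.3 CPM at day 8, so its levels overlapped. Gimap4, a GTPase of immune and endothelial cells, was at 4.22 and 3.95 CPM at day 14, against 99.1 and 71.7 CPM at day 8 (adjusted p = 3.47e-05 for a log2 fold change of −4.38, SE 0.34). The secreted glycoprotein Reln fell to 7.60 and 2.72 CPM, against 64.3 and 74.5 CPM at day 8. The manganese exporter Slc30a10 (−4.91, SE 0.48, adjusted p = 0.000154) and the homeobox gene Nkx1-2 (79.9-fold lower, interval 21.8 to 665) fell strongly too.

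**Figure D4:**
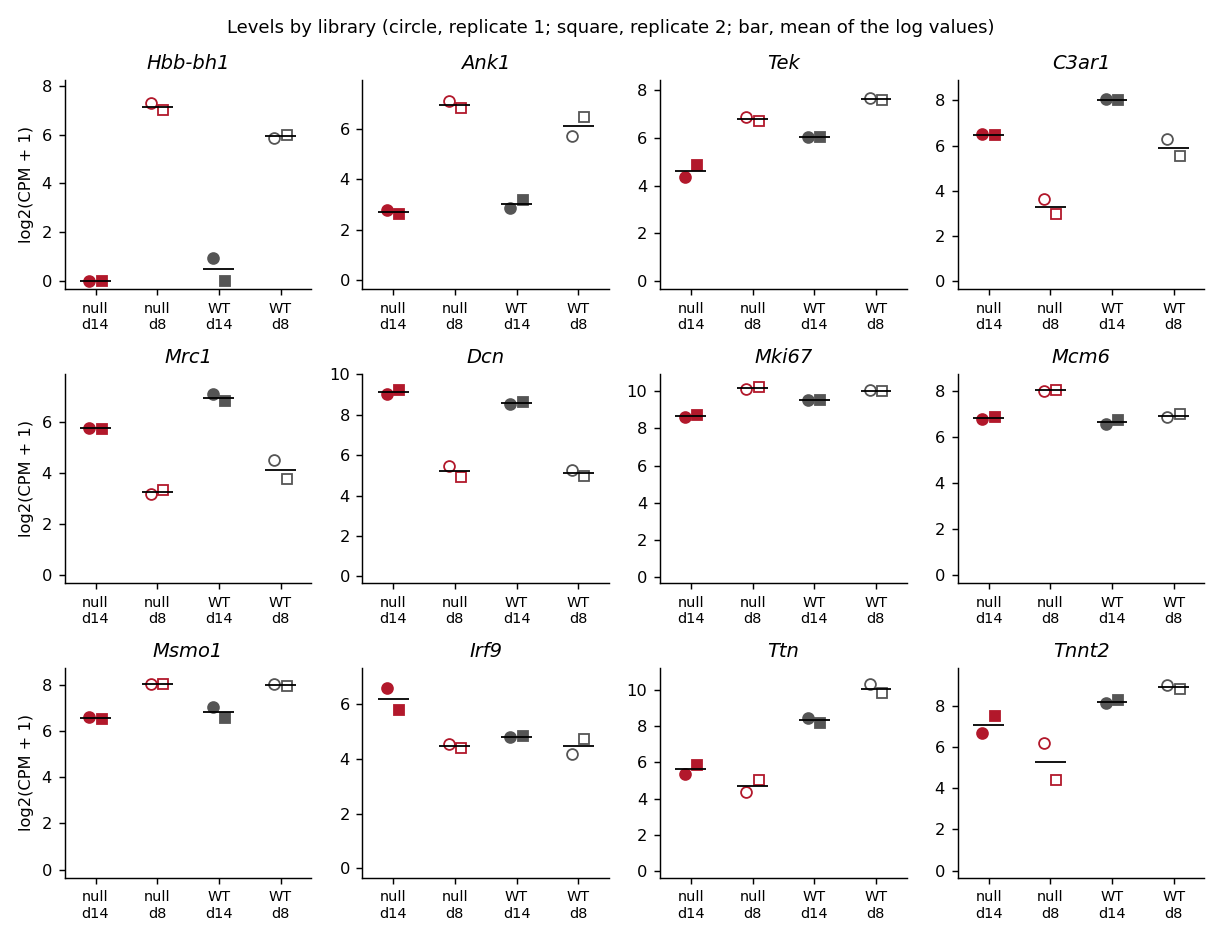
Level of 12 genes in each library of days 14 and 8, log2(CPM + 1), with Rybp null in red and wild type in grey, day 14 filled and day 8 open. Hbb-bh1, Ank1, Tek, Mki67, Mcm6 and Msmo1 are lower and C3ar1, Mrc1, Dcn and Irf9 higher at day 14 in the null cultures; Ttn is slightly higher in null and lower in wild type cultures at day 14, and Tnnt2 was not called.

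Macrophage transcripts, scarce at day 8, rose in most members of their list. Of the macrophage and microglia genes, 22 of the 23 in the table passed the low-count filter. Macrophage and microglia members called were 17 higher and 0 lower, with 5 not called and a median log2 fold change of 4.64 (3.71 with genes at 0 counts in a group held at their bound) in null cultures, against 12 higher, 0 lower and a median of 2.64 in the wild type interval. Csf1r, the receptor for the growth factor on which macrophages depend, was at 35.5 and 34.4 CPM at day 14, against 1.45 and 0.863 CPM at day 8 (adjusted p = 0.000154 for a log2 fold change of 4.85, SE 0.48). The signalling adaptor Tyrobp was at 34.9 and 49.4 CPM at day 14, against 2.66 and 0 CPM at day 8 (adjusted p = 0.000908 for a log2 fold change of 4.86, SE 0.62). C3ar1, a complement receptor, was at 89.8 and 86.5 CPM at day 14, against 11.4 and 6.91 CPM at day 8 (adjusted p = 0.000104 for a log2 fold change of 3.25, SE 0.30). In each of these genes both day 14 libraries stood well above both day 8 libraries. Mrc1, the mannose receptor, was at 53.8 and 51.9 CPM at day 14, against 7.98 and 8.92 CPM at day 8 (adjusted p = 0.000362 for a log2 fold change of 2.64, SE 0.30). The chemokine receptor Cx3cr1 (42.4-fold higher, interval 14.2 to 208), the complement subunit C1qb (138-fold higher, interval 24.4 to 5499) and the protease Ctss (84.5-fold higher, interval 28.6 to 412) were among the others. Lcp1, which bundles actin in leukocytes, was at 256 and 219 CPM at day 14, against 44.5 and 39.7 CPM at day 8 (adjusted p = 0.000192 for a log2 fold change of 2.50, SE 0.25). Apobec1, an RNA-editing cytidine deaminase, was at 75.5 and 132 CPM at day 14, against 5.32 and 6.04 CPM at day 8 (adjusted p = 0.000154 for a log2 fold change of 4.19, SE 0.40). The 4 macrophage markers, each of which was called, summed to 114 and 131 CPM at day 14, against 11.4 and 9.50 CPM at day 8. The macrophage and microglia list had 11 higher without null day 14 replicate 2.

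Complement and inflammation genes were called at 50% and osteoclast and lysosomal genes at 23.5%, against 7.69% of all genes tested. Of the complement and inflammation genes, 18 of the 27 in the table passed the low-count filter. Complement and inflammation members called were 9 higher and 0 lower, with 9 not called and a median log2 fold change of 2.82 (2.30 with genes at 0 counts in a group held at their bound) in null cultures, against 6 higher, 1 lower and a median of 2.17 in the wild type interval. The C1 proteases C1s1 (3.82, SE 0.48, adjusted p = 0.000628) and C1ra (4.06, SE 0.71, adjusted p = 0.00546) and their inhibitor Serping1 (3.46, SE 0.43, adjusted p = 0.000514) were higher. The chemokine Ccl2 was at 6.76 and 10.6 CPM at day 14, against 0 and 0 CPM at day 8 (at least 22.4-fold higher, adjusted p = 0.00164). Ctsb, a lysosomal cysteine protease, was at 357 and 286 CPM at day 14, against 78.1 and 82.02 CPM at day 8 (adjusted p = 0.000104 for a log2 fold change of 2.005, SE 0.18). Of the osteoclast and lysosomal genes, 17 of the 20 in the table passed the low-count filter. Osteoclast and lysosomal members called were 4 higher and 0 lower, with 13 not called and a median log2 fold change of 0.96 in null cultures, against 8 higher, 1 lower and a median of 1.68 in the wild type interval. Besides Ctsb the cathepsin Ctsd was among them (1.37, SE 0.18, adjusted p = 0.000856). The osteoclast markers Acp5, Ctsk and Mmp9 summed to 12.7 and 34.4 CPM at day 14, against 19.6 and 12.4 CPM at day 8, with 0 of 3 called. Macrophage markers moved with these genes, and their part in the result was not tested. The osteoclast and lysosomal list had 2 higher without null day 14 replicate 2 and 1 lower without null day 8 replicate 2.

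Several genes of the fibroblast matrix rose. Of the matricellular and fibroblast matrix genes, 31 of the 32 in the table passed the low-count filter. Matricellular and fibroblast matrix members called were 13 higher and 2 lower, with 16 not called and a median log2 fold change of 1.24 in null cultures, against 12 higher, 2 lower and a median of 0.98 in the wild type interval. Dcn, decorin, a small proteoglycan that binds collagen fibrils, had the lowest p of any gene and was at 523 and 588 CPM at day 14, against 43.5 and 29.6 CPM at day 8 (adjusted p = 5.57e-06 for a log2 fold change of 3.92, SE 0.22). Its relative Bgn, biglycan, was at 147 and 263 CPM at day 14, against 16.7 and 16.1 CPM at day 8 (adjusted p = 3.66e-05 for a log2 fold change of 3.64, SE 0.29). Both day 14 libraries stood far above both day 8 libraries for these 2 genes. Fbln2 (2.76, SE 0.36, adjusted p = 0.000856), Ogn (3.25, SE 0.51, adjusted p = 0.0025) and Thbs2 (71.1-fold higher, interval 12.4 to 2848), further secreted matrix proteins, were higher. Vcan, a large proteoglycan of early heart and mesenchyme, went the other way, at 606 and 434 CPM at day 14, against 1063 and 1185 CPM at day 8 (adjusted p = 0.00356 for a log2 fold change of −1.11, SE 0.19). Postn, given above, was the other member that fell, and its call depended on null day 8 replicate 1. Tgm2, a transglutaminase that crosslinks matrix proteins, was at 157 and 143 CPM at day 14, against 21.5 and 25.04 CPM at day 8 (adjusted p = 3.47e-05 for a log2 fold change of 2.69, SE 0.21). The matricellular and fibroblast matrix list had 8 higher without null day 14 replicate 2 and 1 lower without null day 8 replicate 1.

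Collagen genes were called at 30.8% and genes for collagen processing and crosslinking at 4.35%, against 7.69% of all genes tested. Of the collagen genes, 26 of the 29 in the table passed the low-count filter. Fibrillar and other collagens members called were 8 higher and 0 lower, with 18 not called and a median log2 fold change of 0.96 in null cultures, against 7 higher, 0 lower and a median of 0.77 in the wild type interval. Col1a2, a chain of type I collagen, was at 4884 and 4920.3 CPM at day 14, against 2056 and 1028 CPM at day 8 (adjusted p = 0.00255 for a log2 fold change of 1.67, SE 0.26). Col5a2 was at 318 and 539.8 CPM at day 14, against 164 and 117 CPM at day 8 (adjusted p = 0.00205 for a log2 fold change of 1.61, SE 0.25). Col6a1 (2.69, SE 0.41, adjusted p = 0.00255) and Col6a2 (2.66, SE 0.39, adjusted p = 0.00164) encode 2 chains of type VI collagen and rose by similar factors. Col12a1 (2.17, SE 0.33, adjusted p = 0.00297) and Col27a1 (1.41, SE 0.25, adjusted p = 0.00541) were higher as well. Null day 8 replicate 1 was above replicate 2 for 21 of the 26. Of the genes for collagen processing and crosslinking, 23 of the 24 in the table passed the low-count filter. Collagen processing and crosslinking members called were 1 higher and 0 lower, with 22 not called and a median log2 fold change of 0.46 in null cultures, against 3 higher, 0 lower and a median of 0.63 in the wild type interval. That member was Lox, lysyl oxidase, at 8.73 and 31.4 CPM at day 14, against 0.242 and 0 CPM at day 8 (158-fold higher, counting interval 28.00 to 6290.0, adjusted p = 0.000881). The fibrillar and other collagens list had 13 higher without null day 8 replicate 1 and 1 lower without null day 8 replicate 2 or null day 14 replicate 1. The collagen processing and crosslinking list had 2 higher without null day 14 replicate 1 and 4 higher without null day 8 replicate 1.

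Some matrix proteases and their inhibitors rose. They were called at 28.6% and basement membrane genes at 27.3%, against 7.69% of all genes tested. Of the matrix proteases and inhibitors, 21 of the 24 in the table passed the low-count filter. Matrix proteases and inhibitors members called were 6 higher and 0 lower, with 15 not called and a median log2 fold change of 1.08 in null cultures, against 7 higher, 1 lower and a median of 1.17 in the wild type interval. The gelatinase Mmp2 was at 102 and 206 CPM at day 14, against 27.8 and 25.6 CPM at day 8 (adjusted p = 0.00049 for a log2 fold change of 2.52, SE 0.31). Mmp19 was at 14.6 and 13.8 CPM at day 14, against 3.39 and 4.03 CPM at day 8 (adjusted p = 0.0101 for a log2 fold change of 1.94, SE 0.39). The inhibitor Timp3, which binds matrix, was at 381 and 854 CPM at day 14, against 159 and 150.2 CPM at day 8 (adjusted p = 0.00269 for a log2 fold change of 1.999, SE 0.31). Of the basement membrane genes, 22 of the 22 in the table passed the low-count filter. Basement membrane members called were 5 higher and 1 lower, with 16 not called and a median log2 fold change of 0.43 in null cultures, against 1 higher, 1 lower and a median of 0.40 in the wild type interval. Fras1 (1.61, SE 0.26, adjusted p = 0.00286), which anchors epithelia, and Tinagl1 (1.48, SE 0.28, adjusted p = 0.00741) were higher. Lama4, the laminin chain of vessel walls, was the member that fell, at 35.2 and 26.9 CPM at day 14, against 83.4 and 80.9 CPM at day 8 (adjusted p = 0.00395 for a log2 fold change of −1.40, SE 0.24). Timp3 (2.04, adjusted p = 0.0608) no longer passed without null day 8 replicate 1. Timp3 (1.96, adjusted p = 0.0681) no longer passed without null day 8 replicate 2. The matrix proteases and inhibitors list had 3 higher without null day 8 replicate 2 or null day 14 replicate 2 and 1 lower without null day 8 replicate 2. The basement membrane list had 2 higher without wild type day 8 replicate 1 or wild type day 8 replicate 2.

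Genes of the epicardium and of retinoic acid synthesis were among those that rose. Of this list, 17 of the 20 in the table passed the low-count filter. Epicardial and retinoic acid members called were 8 higher and 2 lower, with 7 not called and a median log2 fold change of 1.71 in null cultures, against 4 higher, 1 lower and a median of 1.09 in the wild type interval. Aldh1a1, a retinaldehyde dehydrogenase, was at 36.04 and 105 CPM at day 14, against 0.967 and 0.288 CPM at day 8 (adjusted p = 0.000362 for a log2 fold change of 6.69, SE 0.70). Aldh1a2, the main retinoic acid enzyme of the epicardium, was at 7.88 and 17.5 CPM at day 14, against 0.967 and 0.288 CPM at day 8 (adjusted p = 0.00403 for a log2 fold change of 4.23, SE 0.72). Both were close to 0 at day 8, and replicate 2 of day 14 was the higher of the day 14 libraries for both. The retinoic acid-binding protein Crabp1 fell (−2.45, SE 0.56, adjusted p = 0.0192). Crabp1 (−1.96, adjusted p = 0.0808) no longer passed without null day 8 replicate 2. Crabp1 (−1.95, adjusted p = 0.144) no longer passed without null day 14 replicate 2. The epicardial and retinoic acid list had 3 higher without null day 8 replicate 2, 4 higher without null day 14 replicate 2, 5 higher without wild type day 8 replicate 1 or wild type day 8 replicate 2, 0 lower without null day 8 replicate 2 or null day 14 replicate 2 and 1 lower without any 1 of the 4 wild type libraries or null day 14 replicate 1.

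BMP and TGF-beta genes were called at 20.6% and Wnt genes at 12.9%, against 7.69% of all genes tested. Of the BMP and TGF-beta genes, 34 of the 41 in the table passed the low-count filter. BMP and TGF-beta members called were 5 higher and 2 lower, with 27 not called and a median log2 fold change of 0.29 in null cultures, against 4 higher, 2 lower and a median of 0.24 in the wild type interval. Tgfb3, a TGF-beta ligand, was at 99.1 and 126 CPM at day 14, against 15.5 and 10.9 CPM at day 8 (adjusted p = 6.48e-05 for a log2 fold change of 3.08, SE 0.26). Fstl1, a secreted follistatin-like protein abundant in mesenchyme, was at 1439 and 1441 CPM at day 14, against 497 and 482 CPM at day 8 (adjusted p = 0.000104 for a log2 fold change of 1.56, SE 0.14). The ligand Bmp2 was lower (−2.87, SE 0.59, adjusted p = 0.0109). Of the Wnt genes, 31 of the 44 in the table passed the low-count filter. Wnt members called were 4 higher and 0 lower, with 27 not called and a median log2 fold change of 0.092 in null cultures, against 1 higher, 1 lower and a median of 0.22 in the wild type interval. Of the 4 that rose, 2 were secreted Wnt antagonists, Sfrp2 at 81.6 and 166 CPM at day 14, against 15.5 and 10.1 CPM at day 8 (adjusted p = 0.000386 for a log2 fold change of 3.27, SE 0.38) and Sfrp1 at 651 and 873 CPM at day 14, against 306 and 155 CPM at day 8 (adjusted p = 0.00419 for a log2 fold change of 1.72, SE 0.29). The receptor Fzd1 was also higher (1.45, SE 0.25, adjusted p = 0.00457). Bmp2 (−2.32, adjusted p = 0.066) no longer passed without null day 14 replicate 1. The BMP and TGF-beta list had 3 higher without null day 14 replicate 2 and 1 lower without null day 14 replicate 2. The Wnt list had 1 lower without wild type day 14 replicate 1, wild type day 14 replicate 2 or null day 8 replicate 1.

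Of the IGF, FGF and PDGF genes, 35 of the 38 in the table passed the low-count filter. Of those tested 22.9% were called, against 7.69% of all genes tested. IGF, FGF and PDGF members called were 6 higher and 2 lower, with 27 not called and a median log2 fold change of 0.44 in null cultures, against 6 higher, 1 lower and a median of 0.15 in the wild type interval. Met, the hepatocyte growth factor receptor, was at 54.9 and 101 CPM at day 14, against 5.32 and 7.48 CPM at day 8 (adjusted p = 0.000192 for a log2 fold change of 3.61, SE 0.37). The growth factors Pdgfc (2.23, SE 0.29, adjusted p = 0.000738) and Fgf1 (3.38, SE 0.58, adjusted p = 0.00405) were higher. The growth factor Igf2, which drives fetal growth, was at 11889.9 and 15809.9 CPM at day 14, against 8179.8 and 4693 CPM at day 8 (adjusted p = 0.0161 for a log2 fold change of 1.11, SE 0.24). Mical2, an enzyme that oxidises and takes apart actin filaments, was at 103 and 147 CPM at day 14, against 8.70 and 8.06 CPM at day 8 (adjusted p = 2.98e-05 for a log2 fold change of 3.89, SE 0.29). Ppp2r2b, a subunit of protein phosphatase 2A, was at 68.4 and 134 CPM at day 14, against 5.80 and 3.45 CPM at day 8 (adjusted p = 0.000135 for a log2 fold change of 4.42, SE 0.42). The semaphorin Sema3d (at least 29.05-fold higher) and the annexin Anxa8 (at least 35.1-fold higher) had 0 counts at day 8. Igf2 (0.89, adjusted p = 0.102) no longer passed without null day 14 replicate 2. The IGF, FGF and PDGF list had 3 higher without null day 14 replicate 2, 0 lower without null day 8 replicate 1 and 1 lower without wild type day 8 replicate 1, wild type day 8 replicate 2, null day 14 replicate 1 or null day 14 replicate 2.

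Mitotic transcripts fell across nearly the whole list. Of the mitosis genes, 35 of the 35 in the table passed the low-count filter. Mitosis members called were 0 higher and 31 lower, with 4 not called and a median log2 fold change of −1.15 in null cultures, against 0 higher, 1 lower and a median of −0.43 in the wild type interval. All 35 had a negative log2 fold change. With only the 4 null libraries in the fit 15 were called lower, and in a test against a fold of 1.5 also 15, with a median of −1.15 in both. Mki67, the Ki-67 proliferation antigen, was at 384 and 426 CPM at day 14, against 1096 and 1212 CPM at day 8 (adjusted p = 0.000154 for a log2 fold change of −1.51, SE 0.15). Cenpe, a kinetochore motor, was at 201 and 241 CPM at day 14, against 555 and 633 CPM at day 8 (adjusted p = 0.000386 for a log2 fold change of −1.43, SE 0.17). Top2a, which untangles sister chromatids, was at 307 and 327 CPM at day 14, against 618 and 805 CPM at day 8 (adjusted p = 0.00128 for a log2 fold change of −1.17, SE 0.17). In each of them both day 14 libraries lay below both day 8 libraries. Ndc80 (−1.34, SE 0.17, adjusted p = 0.000593) and Cenpf (−1.26, SE 0.18, adjusted p = 0.00115), both kinetochore proteins, and the chromosome passenger Cdca8 (−1.82, SE 0.25, adjusted p = 0.000984) fell too. The mitosis list had 17 lower without null day 14 replicate 2.

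Promoters of mitosis genes are known for the cell cycle homology region, and 2 of those that fell are shown for that reason, with the searched letters in capitals. The sequences are the 250 bases before the annotated start in the RefSeq table built on GRCm38.p6, 5′ to 3′ on the gene's strand, at chr7:135716380-135716629, minus strand, for Mki67 and chr11:99024190-99024439, minus strand, for Top2a.
Mki67: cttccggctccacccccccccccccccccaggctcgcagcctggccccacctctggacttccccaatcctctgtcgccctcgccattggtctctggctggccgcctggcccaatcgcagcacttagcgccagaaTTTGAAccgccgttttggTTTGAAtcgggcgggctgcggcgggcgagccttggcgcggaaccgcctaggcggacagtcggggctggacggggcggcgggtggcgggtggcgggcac
Top2a: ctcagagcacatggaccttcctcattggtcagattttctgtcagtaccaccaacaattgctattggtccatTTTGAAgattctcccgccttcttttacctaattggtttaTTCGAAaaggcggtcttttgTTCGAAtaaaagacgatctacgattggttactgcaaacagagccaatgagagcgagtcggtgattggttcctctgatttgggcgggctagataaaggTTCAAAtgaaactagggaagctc
TTTGAA or TTCGAA, on either strand, was found in 12 of the 30 mitosis genes matched in that table (40.0%) and in 19.6% of all 27025 genes in it; TTCGAA reads the same on both strands. Of the 26 matched members that were lower, 10 held it. A match is a description of the letters only.

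Part of the replication genes fell as well. DNA replication genes were called at 30.6%, PRC2 and DNA methylation genes at 14.3% and CDK inhibitors and p53 targets at 12%. The share over all genes tested was 7.69%. Of the DNA replication genes, 36 of the 36 in the table passed the low-count filter. DNA replication members called were 0 higher and 11 lower, with 25 not called and a median log2 fold change of −0.83 in null cultures, against 0 higher, 1 lower and a median of −0.39 in the wild type interval. Mcm6, a subunit of the replicative helicase, was at 108 and 116 CPM at day 14, against 257 and 267 CPM at day 8 (adjusted p = 0.000856 for a log2 fold change of −1.23, SE 0.16). Mcm4 (−0.998, SE 0.16, adjusted p = 0.00299) and Mcm3 (−1.05, SE 0.19, adjusted p = 0.00577) belong to the same helicase, and Uhrf1 (−1.69, SE 0.27, adjusted p = 0.00273), which directs DNA methylation to new strands, also fell. Nasp, a chaperone of histones, was at 262 and 307 CPM at day 14, against 918 and 1016 CPM at day 8 (adjusted p = 0.0001 for a log2 fold change of −1.76, SE 0.16). Of the PRC2 and DNA methylation genes, 21 of the 21 in the table passed the low-count filter. PRC2 and DNA methylation members called were 0 higher and 3 lower, with 18 not called and a median log2 fold change of −0.26 in null cultures, against 0 higher, 0 lower and a median of −0.36 in the wild type interval. Besides Uhrf1 these were the methyltransferase of PRC2, Ezh2 (−0.90, SE 0.19, adjusted p = 0.013), and the maintenance DNA methyltransferase Dnmt1 (−0.63, SE 0.15, adjusted p = 0.0274). Of the CDK inhibitors and p53 targets, 25 of the 25 in the table passed the low-count filter. CDK inhibitors and p53 targets members called were 3 higher and 0 lower, with 22 not called and a median log2 fold change of 0.50 in null cultures, against 2 higher, 0 lower and a median of 0.52 in the wild type interval. Cdkn1a, the inhibitor p21, was at 179 and 225 CPM at day 14, against 92.4 and 82.6 CPM at day 8 (adjusted p = 0.00223 for a log2 fold change of 1.21, SE 0.19). Dnmt1 (−0.63, adjusted p = 0.0693) no longer passed without wild type day 8 replicate 1. Dnmt1 (−0.63, adjusted p = 0.0688) no longer passed without wild type day 8 replicate 2. Ezh2 (−0.85, adjusted p = 0.085) and Dnmt1 (−0.53, adjusted p = 0.171) no longer passed without null day 14 replicate 2. The DNA replication list had 5 lower without null day 14 replicate 1 and 6 lower without null day 14 replicate 2. The PRC2 and DNA methylation list had 1 higher without null day 8 replicate 1 and 1 lower without null day 14 replicate 2. The CDK inhibitors and p53 targets list had 1 higher without null day 14 replicate 2 and 5 higher without null day 14 replicate 1.

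Interferon response genes rose, with day 14 replicates that differed. Of these genes, 27 of the 27 in the table passed the low-count filter. Interferon response members called were 15 higher and 0 lower, with 12 not called and a median log2 fold change of 2.28 in null cultures, against 2 higher, 0 lower and a median of 0.84 in the wild type interval. B2m, the light chain of MHC class I, was at 159 and 145 CPM at day 14, against 33.9 and 42.6 CPM at day 8 (adjusted p = 0.000362 for a log2 fold change of 1.99, SE 0.22). Irf9, the DNA-binding part of the factor that answers type I interferon, was at 96.6 and 54.6 CPM at day 14, against 22.2 and 20.1 CPM at day 8 (adjusted p = 0.00391 for a log2 fold change of 1.83, SE 0.31). Ifi27, an interferon-inducible protein, was at 76.6 and 44.5 CPM at day 14, against 3.63 and 1.15 CPM at day 8 (adjusted p = 0.000207 for a log2 fold change of 4.60, SE 0.47). Replicate 1 of day 14 was above replicate 2 for each of these, as for 24 of the 27 genes, against 48.6% of all genes tested. Ifit1, which binds foreign RNA, was at 23.9 and 5.68 CPM at day 14, against 0 and 0 CPM at day 8 (at least 36.1-fold higher, adjusted p = 0.00424). The RNA sensor Ifih1 was higher too (3.17, SE 0.57, adjusted p = 0.00561). Families such as Ifit and Oas have close copies that may share reads. The interferon response list had 7 higher without null day 14 replicate 1, 8 higher without null day 8 replicate 2 and 9 higher without null day 8 replicate 1. Macrophage markers rose over the same interval, and their part in the interferon result was not tested.

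Interferon response promoters are known for the interferon-stimulated response element, and 2 genes that rose are shown with matches to it in capitals. As above the sequences are the 250 bases before the start, at chr2:122147437-122147686, plus strand, for B2m and chr19:34640639-34640888, plus strand, for Ifit1.
B2m: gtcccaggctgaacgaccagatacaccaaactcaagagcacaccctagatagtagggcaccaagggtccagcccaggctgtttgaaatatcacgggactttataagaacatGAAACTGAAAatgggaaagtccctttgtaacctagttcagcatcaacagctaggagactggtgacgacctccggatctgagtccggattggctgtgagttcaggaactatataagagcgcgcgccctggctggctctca
Ifit1: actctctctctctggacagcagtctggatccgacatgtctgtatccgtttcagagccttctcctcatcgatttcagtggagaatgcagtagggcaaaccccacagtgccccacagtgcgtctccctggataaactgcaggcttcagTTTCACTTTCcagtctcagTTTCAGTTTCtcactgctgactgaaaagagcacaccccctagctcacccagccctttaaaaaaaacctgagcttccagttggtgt
The element was searched as GAAA, any 2 bases and GAAA, on both strands, and was found in 10 of the 23 interferon genes matched (43.5%), among them 6 of the 11 matched members that were higher, and in 3.46% of all 27025 genes. The Ifit1 window holds 2 matches, which start 104 and 85 bases before the annotated start, and the B2m window holds 1, at 139 bases.

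Sarcomere genes were called at 6.67%, near the 7.69% of all genes tested, and skeletal muscle genes at 11.1%. Of the sarcomere genes, 30 of the 35 in the table passed the low-count filter. Sarcomere members called were 2 higher and 0 lower, with 28 not called and a median log2 fold change of 0.80 (0.49 with genes at 0 counts in a group held at their bound) in null cultures, against 0 higher, 5 lower and a median of −0.64 in the wild type interval. Titin (Ttn), which spans the sarcomere and gives it elasticity, was at 40.8 and 57.8 CPM at day 14, against 19.8 and 31.4 CPM at day 8 (adjusted p = 0.0442 for a log2 fold change of 0.96, SE 0.26). In null ES cells at day 0 (1 library) Ttn was at 132 CPM, above its level at both later days. In wild type cultures Ttn was at 347 and 292 CPM at day 14, against 1258 and 918 CPM at day 8 (log2 fold change −1.77, adjusted p = 0.00162). It was the 1 gene called in opposite directions in the genotypes, but the test of that difference did not pass (adjusted p = 0.0669 for a difference of 2.72 in log2 fold change, SE 0.35). The other called member was Pdlim5, a Z-disc adaptor also present outside muscle (0.93, SE 0.25, adjusted p = 0.042). Cardiac troponin T, Tnnt2, was at 102 and 181 CPM at day 14, against 72.1 and 20.4 CPM at day 8 (adjusted p = 0.102 for a log2 fold change of 1.60, SE 0.50), so the groups did not overlap but the test did not pass. Myh6, the atrial myosin heavy chain, was at 9.85 and 0.741 CPM at day 14, against 0.725 and 1.73 CPM at day 8 (adjusted p = 0.267 for a log2 fold change of 2.08, SE 0.98), with 1 day 14 library high and the other no higher than at day 8. Smyd1, a methyltransferase needed for myofibril assembly, was at 7.32 and 10.1 CPM at day 14, against 5.32 and 4.32 CPM at day 8 (adjusted p = 0.169 for a log2 fold change of 0.85, SE 0.35) in null cultures. In wild type cultures it fell (log2 fold change −2.20, adjusted p = 0.00123; adjusted p = 0.0731 for a difference of 3.05 in log2 fold change, SE 0.44). Of the skeletal muscle genes, 9 of the 20 in the table passed the low-count filter. Skeletal muscle members called were 1 higher and 0 lower, with 8 not called and a median log2 fold change of 0.16 (0.17 with genes at 0 counts in a group held at their bound) in null cultures, against 0 higher, 1 lower and a median of 0.05 in the wild type interval. That member was again Ttn. Ttn passed, of the 8 fits without 1 library of days 8 and 14 that tested it, in those without null day 8 replicate 2 or null day 14 replicate 1 (log2 fold changes 0.66 to 0.96, adjusted p = 0.0602 to 0.258 in the others). Pdlim5 passed, of the 8 fits without 1 library of days 8 and 14 that tested it, in that without null day 14 replicate 1 (log2 fold changes 0.53 to 1.03, adjusted p = 0.0617 to 0.33 in the others). The sarcomere list had 0 higher without any 1 of the 4 wild type libraries, 1 higher without null day 8 replicate 2 or null day 14 replicate 2, 1 lower without null day 14 replicate 2 and 2 lower without null day 8 replicate 2.

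Calcium handling and excitability genes were called at 10.3%, cardiac progenitor factors at 13.6% and smooth muscle contractile genes at 5.88%. The share over all genes tested was 7.69%. Of the calcium handling and excitability genes, 29 of the 33 in the table passed the low-count filter. Calcium handling and excitability members called were 3 higher and 0 lower, with 26 not called and a median log2 fold change of 0.082 in null cultures, against 1 higher, 3 lower and a median of −0.34 in the wild type interval. The L-type channel Cacna1c was among them, at 23.6 and 39.3 CPM at day 14, against 9.19 and 10.4 CPM at day 8 (adjusted p = 0.00958 for a log2 fold change of 1.69, SE 0.34). Of the cardiac progenitor factors, 22 of the 30 in the table passed the low-count filter. Cardiac progenitor factors members called were 1 higher and 2 lower, with 19 not called and a median log2 fold change of 0.29 in null cultures, against 0 higher, 3 lower and a median of −0.64 in the wild type interval. Isl1, a marker of second heart field progenitors, was at 0.282 and 0 CPM at day 14, against 3.63 and 5.76 CPM at day 8 (34.9-fold lower, counting interval 5.87 to 1419, adjusted p = 0.0103). Hand1, a factor of the left ventricle and of extraembryonic tissue, was at 19.99 and 7.66 CPM at day 14, against 59.7 and 47.2 CPM at day 8 (adjusted p = 0.00882 for a log2 fold change of −1.96, SE 0.39). Zfpm2, a GATA cofactor, was at 47.3 and 61.5 CPM at day 14, against 22.00 and 15.5 CPM at day 8 (adjusted p = 0.00537 for a log2 fold change of 1.53, SE 0.27). Nkx2-5 had 0 counts in all 4 null libraries and was not tested. Of the smooth muscle contractile genes, 17 of the 18 in the table passed the low-count filter. Smooth muscle contractile members called were 1 higher and 0 lower, with 16 not called and a median log2 fold change of 0.099 in null cultures, against 1 higher, 2 lower and a median of 0.14 in the wild type interval. That member was Mylk, myosin light chain kinase, at 143 and 346 CPM at day 14, against 22.7 and 8.92 CPM at day 8 (adjusted p = 0.00634 for a log2 fold change of 3.93, SE 0.58). The 4 smooth muscle markers summed to 310 and 302 CPM at day 14, against 695 and 351 CPM at day 8, with 0 of 4 called. Mylk (3.43, adjusted p = 0.0565) no longer passed without null day 8 replicate 2. Cacna1c (1.28, adjusted p = 0.0942), Isl1 (adjusted p = 0.0804) and Hand1 (−1.42, adjusted p = 0.0526) no longer passed without null day 14 replicate 2. The calcium handling and excitability list had 0 higher without null day 14 replicate 2, 1 higher without null day 8 replicate 2 and 1 lower without null day 8 replicate 1. The cardiac progenitor factors list had 2 higher without null day 8 replicate 1 and 0 lower without null day 14 replicate 2. The smooth muscle contractile list had 0 higher without null day 8 replicate 2, 4 higher without null day 8 replicate 1 and 1 lower without null day 8 replicate 2.

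Some placental transcripts appeared in null cultures between these days, on few counts at day 8. Tpbpa, a marker of the mouse spongiotrophoblast, was at 427 and 289 CPM at day 14, against 1.21 and 0.288 CPM at day 8 (adjusted p = 0.0332 for a log2 fold change of 8.77, SE 1.44). Its relative Tpbpb was at 22.8 and 15.3 CPM at day 14, against 0 and 0 CPM at day 8 (at least 47.7-fold higher, adjusted p = 0.000507). The placental prolactin Prl2b1 (at least 61.4-fold higher), cathepsin Ctsj (at least 27.04-fold higher) and serpin Serpinb9f (at least 33.4-fold higher) had 0 counts at day 8. Tnfrsf9, a costimulatory receptor, was at 62.5 and 28.2 CPM at day 14, against 0.242 and 0.288 CPM at day 8 (168-fold higher, counting interval 46.2 to 1395, adjusted p = 0.00795). Day 14 replicate 1 was the higher of the day 14 libraries for all 6. The prolactin, cathepsin and serpin families have close copies, so these values are uncertain. Of the trophoblast genes, 15 of the 20 in the table passed the low-count filter, and 26.7% of those were called, against 7.69% of all genes tested. Trophoblast members called were 2 higher and 2 lower, with 11 not called and a median log2 fold change of 0.94 in null cultures, against 1 higher, 2 lower and a median of 0.78 in the wild type interval. Besides Tpbpa the keratin Krt7 rose (1.58, SE 0.33, adjusted p = 0.0122), while Hand1 and the imprinted Phlda2 fell (−2.03, SE 0.46, adjusted p = 0.0187). The 4 trophoblast markers summed to 156 and 94.7 CPM at day 14, against 69.4 and 93.0 CPM at day 8, with 0 called. Prl2b1 (adjusted p = 0.0543), Serpinb9f (adjusted p = 0.0772) and Tnfrsf9 (adjusted p = 0.102) no longer passed without null day 8 replicate 1. Serpinb9f (adjusted p = 0.0708), Tnfrsf9 (adjusted p = 0.0912) and Phlda2 (−1.56, adjusted p = 0.0947) no longer passed without null day 8 replicate 2. Serpinb9f (adjusted p = 0.0641) and Phlda2 (−2.24, adjusted p = 0.0517) no longer passed without null day 14 replicate 1. Phlda2 (−1.83, adjusted p = 0.121) no longer passed without null day 14 replicate 2. Tpbpa passed, of the 8 fits without 1 library of days 8 and 14 that tested it, in those without any 1 of the 4 wild type libraries (log2 fold changes 8.17 to 10.12, adjusted p = 0.0961 to 0.203 in the others). Ctsj passed, of the 8 fits without 1 library of days 8 and 14 that tested it, in those without any 1 of the 4 wild type libraries (adjusted p = 0.0788 to 0.135 in the others). The trophoblast list had 1 higher without null day 8 replicate 1, null day 8 replicate 2, null day 14 replicate 1 or null day 14 replicate 2, 0 lower without null day 14 replicate 2 and 1 lower without null day 8 replicate 2 or null day 14 replicate 1.

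Visceral endoderm and liver genes were called at 14.3%, epithelial identity genes at 17.4%, neural genes at 15.4% and chondrocyte and osteoblast genes at 16.7%. The share over all genes tested was 7.69%. Of the visceral endoderm and liver genes, 21 of the 26 in the table passed the low-count filter. Visceral endoderm and liver members called were 3 higher and 0 lower, with 18 not called and a median log2 fold change of 0.95 (0.71 with genes at 0 counts in a group held at their bound) in null cultures, against 3 higher, 0 lower and a median of 0.44 in the wild type interval. Afp, alpha-fetoprotein, was at 8.45 and 2.72 CPM at day 14, against 0.242 and 0 CPM at day 8 (41.1-fold higher, counting interval 6.97 to 1661, adjusted p = 0.00732), and the apolipoprotein Apoa1 was higher (18.7-fold higher, interval 6.08 to 93.4). The marker Ttr was at 38.9 and 11.4 CPM at day 14, against 5.32 and 29.1 CPM at day 8, so its levels overlapped. The 4 visceral endoderm markers summed to 59.7 and 17.1 CPM at day 14, against 5.56 and 29.9 CPM at day 8, which also overlapped. Of the epithelial identity genes, 23 of the 32 in the table passed the low-count filter. Epithelial identity members called were 3 higher and 1 lower, with 19 not called and a median log2 fold change of 0.21 in null cultures, against 2 higher, 2 lower and a median of −0.16 in the wild type interval. Krt7 was among those that rose, as was the basal keratin Krt5, whose day 14 replicates differed widely, at 23.9 and 2.72 CPM at day 14, against 0.242 and 0 CPM at day 8 (96.2-fold higher, counting interval 16.9 to 3837, adjusted p = 0.0163). The member that fell was Dsp (log2 fold changes −1.45 to −0.69 in fits without 1 library of days 8 and 14). The 4 epithelial markers summed to 470 and 192 CPM at day 14, against 218 and 510 CPM at day 8. These sums overlapped, and 0 of the 4 were called. Scel, a precursor of the cornified envelope, was at 81.9 and 119 CPM at day 14, against 6.77 and 9.21 CPM at day 8 (adjusted p = 0.000353 for a log2 fold change of 3.65, SE 0.40). Of the neural genes, 13 of the 29 in the table passed the low-count filter. Neural members called were 1 higher and 1 lower, with 11 not called and a median log2 fold change of −1.11 (−0.95 with genes at 0 counts in a group held at their bound) in null cultures, against 1 higher, 0 lower and a median of 0 in the wild type interval. The homeobox gene En1 rose (1.64, SE 0.32, adjusted p = 0.00885) and the microtubule regulator Stmn2 fell (−3.31, SE 0.52, adjusted p = 0.0025). Of the chondrocyte and osteoblast genes, 12 of the 22 in the table passed the low-count filter. Chondrocyte and osteoblast members called were 2 higher and 0 lower, with 10 not called and a median log2 fold change of −0.15 in null cultures, against 1 higher, 0 lower and a median of −0.23 in the wild type interval. These were Spp1, osteopontin (15.4-fold higher, interval 4.94 to 77.2), and the phosphatase Alpl (1.86, SE 0.50, adjusted p = 0.0405). Apoa1 (adjusted p = 0.0838), Krt5 (adjusted p = 0.0939) and Spp1 (adjusted p = 0.0868) no longer passed without null day 8 replicate 1. Krt5 (adjusted p = 0.112) no longer passed without null day 8 replicate 2. Apoa1 (adjusted p = 0.126) and Krt5 (adjusted p = 0.128) no longer passed without null day 14 replicate 1. Spp1 (adjusted p = 0.0868) no longer passed without null day 14 replicate 2. Alpl passed, of the 8 fits without 1 library of days 8 and 14 that tested it, in that without null day 14 replicate 2 (log2 fold changes 1.14 to 2.18, adjusted p = 0.0563 to 0.296 in the others). The visceral endoderm and liver list had 1 higher without null day 8 replicate 1 or null day 14 replicate 1. The epithelial identity list had 1 higher without null day 8 replicate 2 or null day 14 replicate 1, 0 lower without wild type day 8 replicate 1, wild type day 8 replicate 2, null day 8 replicate 1 or null day 14 replicate 2 and 2 lower without null day 8 replicate 2. The neural list had 2 higher without wild type day 14 replicate 1.

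Pluripotency genes were called at 10.3% and germ cell genes at 9.09%, against 7.69% of all genes tested. Of the pluripotency genes, 29 of the 29 in the table passed the low-count filter. Pluripotency members called were 0 higher and 3 lower, with 26 not called and a median log2 fold change of −1.28 in null cultures, against 1 higher, 2 lower and a median of 0 in the wild type interval. Lin28b, which blocks let-7 processing, was at 21.4 and 10.6 CPM at day 14, against 68.4 and 123 CPM at day 8 (adjusted p = 0.00112 for a log2 fold change of −2.59, SE 0.36). Dppa5a (−2.44, SE 0.47, adjusted p = 0.00846) and Dppa3 (at least 3.33-fold lower) were also lower. Nanog was at 36.04 and 16.1 CPM at day 14, against 40.4 and 88.9 CPM at day 8 (adjusted p = 0.169 for a log2 fold change of −1.31, SE 0.50) and Pou5f1 at 1.97 and 0.741 CPM at day 14, against 1.69 and 3.74 CPM at day 8 (adjusted p = 0.353 for a log2 fold change of −0.99, SE 0.57); neither passed. Of the germ cell and meiosis genes, 33 of the 36 in the table passed the low-count filter. Germ cell and meiosis members called were 1 higher and 2 lower, with 30 not called and a median log2 fold change of −0.22 in null cultures, against 0 higher, 0 lower and a median of 0 in the wild type interval. Rnf17, a tudor protein of germ cell granules (−1.02, SE 0.27, adjusted p = 0.0379), and the synaptonemal protein Sycp2 (−1.63, SE 0.45, adjusted p = 0.0446) fell, and the testis transcription factor Taf7l rose (2.05, SE 0.56, adjusted p = 0.0477). Dppa5a (−2.34, adjusted p = 0.0638) no longer passed without null day 14 replicate 2. Dppa3 passed in none of the 8 fits without 1 library of days 8 and 14 (adjusted p = 0.0548 to 0.162). Rnf17 passed, of the 8 fits without 1 library of days 8 and 14 that tested it, in that without null day 8 replicate 1 (log2 fold changes −1.06 to −0.71, adjusted p = 0.051 to 0.156 in the others). Sycp2 passed, of the 8 fits without 1 library of days 8 and 14 that tested it, in that without null day 8 replicate 1 (log2 fold changes −1.66 to −0.999, adjusted p = 0.0524 to 0.246 in the others). Taf7l passed, of the 8 fits without 1 library of days 8 and 14 that tested it, in those without wild type day 14 replicate 1, wild type day 14 replicate 2 or null day 14 replicate 2 (log2 fold changes 1.55 to 2.51, adjusted p = 0.051 to 0.212 in the others). The pluripotency list had 3 higher without null day 8 replicate 2, 1 lower without null day 14 replicate 2 and 5 lower without null day 14 replicate 1. The germ cell and meiosis list had 0 higher without wild type day 8 replicate 1, wild type day 8 replicate 2, null day 8 replicate 1, null day 8 replicate 2 or null day 14 replicate 1, 2 higher without wild type day 14 replicate 1 or wild type day 14 replicate 2, 0 lower without any 1 of the 4 wild type libraries, null day 8 replicate 2 or null day 14 replicate 2 and 1 lower without null day 14 replicate 1.

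PRC1 genes were called at 3.03%, Hox genes at 3.7% and imprinted genes at 31.8%, against 7.69% of all genes tested. Of the PRC1 genes, 33 of the 33 in the table passed the low-count filter. PRC1 members called were 1 higher and 0 lower, with 32 not called and a median log2 fold change of −0.029 in null cultures, against 1 higher, 1 lower and a median of 0.021 in the wild type interval. That member was the chromobox protein Cbx6, at 29.3 and 55.9 CPM at day 14, against 13.1 and 8.35 CPM at day 8 (adjusted p = 0.0107 for a log2 fold change of 1.98, SE 0.40). Yaf2, the paralog of Rybp, was at 14.9 and 15.1 CPM at day 14, against 13.1 and 16.98 CPM at day 8 (adjusted p = 1 for a log2 fold change of 0.0023, SE 0.32), so its levels overlapped between days. Of the Hox genes, 27 of the 33 in the table passed the low-count filter. Hox members called were 0 higher and 1 lower, with 26 not called and a median log2 fold change of −0.064 in null cultures, against 0 higher, 1 lower and a median of 0.067 in the wild type interval. That member was Hoxd1 (at least 5.32-fold lower). Among imprinted genes, 22 of the 24 in the table passed the low-count filter. Imprinted members called were 3 higher and 4 lower, with 15 not called and a median log2 fold change of 0.016 in null cultures, against 1 higher, 4 lower and a median of 0.0062 in the wild type interval. H19, a noncoding RNA of mesoderm and endoderm, had the highest CPM of the named genes at day 14, at 17619.9 and 18018 CPM at day 14, against 7098 and 7290.2 CPM at day 8 (adjusted p = 0.000375 for a log2 fold change of 1.31, SE 0.15). Zim1 was at 457 and 355 CPM at day 14, against 175 and 138 CPM at day 8 (adjusted p = 0.00139 for a log2 fold change of 1.37, SE 0.20), and Igf2, the neighbour of H19, rose as given above. Nnat, a membrane protein of the developing brain, was lower (−0.83, SE 0.22, adjusted p = 0.0405), as was Phlda2. Plagl1, an imprinted zinc finger factor, was at 155 and 299 CPM at day 14, against 161 and 149 CPM at day 8 (adjusted p = 0.203 for a log2 fold change of 0.56, SE 0.24) and did not pass. Cbx6 (1.71, adjusted p = 0.0567) no longer passed without null day 8 replicate 2. Cbx6 (1.44, adjusted p = 0.0919) no longer passed without null day 14 replicate 2. Hoxd1 passed, of the 7 fits without 1 library of days 8 and 14 that tested it, in that without null day 8 replicate 1 (adjusted p = 0.0747 to 0.18 in the others). Nnat passed, of the 8 fits without 1 library of days 8 and 14 that tested it, in that without null day 8 replicate 2 (log2 fold changes −0.88 to −0.42, adjusted p = 0.0585 to 0.184 in the others). The imprinted list had 5 higher without null day 8 replicate 1, 0 lower without null day 14 replicate 2, 1 lower without wild type day 8 replicate 1, wild type day 8 replicate 2 or null day 14 replicate 1 and 2 lower without wild type day 14 replicate 1, wild type day 14 replicate 2, null day 8 replicate 1 or null day 8 replicate 2.

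Some genes of lipid metabolism passed the test, in both directions. Cholesterol synthesis genes were called at 22.7%, fatty acid and adipocyte genes at 26.3% and glycolysis and hypoxia genes at 11.5%. The share over all genes tested was 7.69%. Of the cholesterol synthesis genes, 22 of the 23 in the table passed the low-count filter. Cholesterol synthesis members called were 0 higher and 5 lower, with 17 not called and a median log2 fold change of −0.74 in null cultures, against 0 higher, 10 lower and a median of −1.22 in the wild type interval. Msmo1, a sterol oxidase, was at 96.3 and 92.2 CPM at day 14, against 259 and 262 CPM at day 8 (adjusted p = 0.000628 for a log2 fold change of −1.47, SE 0.19). Idi1, an isomerase of the same route, was lower too (−1.89, SE 0.29, adjusted p = 0.00223). Of the fatty acid and adipocyte genes, 19 of the 26 in the table passed the low-count filter. Fatty acid and adipocyte members called were 5 higher and 0 lower, with 14 not called and a median log2 fold change of 0.49 in null cultures, against 5 higher, 3 lower and a median of 0.31 in the wild type interval. Cpt1a, which admits fatty acids to mitochondria, was at 21.4 and 23.2 CPM at day 14, against 4.35 and 2.30 CPM at day 8 (adjusted p = 0.00164 for a log2 fold change of 2.71, SE 0.40). Lpl, lipoprotein lipase, was at 71.5 and 121 CPM at day 14, against 20.3 and 26.2 CPM at day 8 (adjusted p = 0.00122 for a log2 fold change of 2.05, SE 0.29), and the coactivator Ppargc1a was at 8.73 and 13.6 CPM at day 14, against 1.45 and 1.15 CPM at day 8 (adjusted p = 0.00395 for a log2 fold change of 3.06, SE 0.52). Of the glycolysis and hypoxia genes, 26 of the 26 in the table passed the low-count filter. Glycolysis and hypoxia members called were 0 higher and 3 lower, with 23 not called and a median log2 fold change of −0.38 in null cultures, against 0 higher, 1 lower and a median of −0.17 in the wild type interval. The 3 were the enzymes Pgk1 (−1.08, SE 0.23, adjusted p = 0.0135), Pkm (−0.89, SE 0.20, adjusted p = 0.0165) and Ldha (−0.79, SE 0.20, adjusted p = 0.0331). Pkm (−0.71, adjusted p = 0.052) no longer passed without null day 8 replicate 1. Pkm (−0.91, adjusted p = 0.0612) no longer passed without null day 14 replicate 1. Pgk1 (−0.70, adjusted p = 0.0715) and Pkm (−0.86, adjusted p = 0.092) no longer passed without null day 14 replicate 2. Ldha passed, of the 8 fits without 1 library of days 8 and 14 that tested it, in those without null day 8 replicate 1 or null day 14 replicate 1 (log2 fold changes −0.79 to −0.50, adjusted p = 0.0625 to 0.224 in the others). The fatty acid and adipocyte list had 3 higher without wild type day 8 replicate 1, wild type day 8 replicate 2, null day 8 replicate 2, null day 14 replicate 1 or null day 14 replicate 2 and 1 lower without null day 14 replicate 1.

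Respiratory chain and ribosomal protein genes held no calls. ATF4 stress and serine synthesis genes were called at 8.33% and immediate early genes at 12.5%, against 7.69% of all genes tested. Of the respiratory chain genes, 33 of the 34 in the table passed the low-count filter. Mitochondrial respiratory chain members called were 0 higher and 0 lower, with 33 not called and a median log2 fold change of −0.11 in null cultures, against 0 higher, 0 lower and a median of 0.19 in the wild type interval. The members of lowest p were Cox4i1 (0.44, SE 0.24, adjusted p = 0.328) and Sdhd (−0.41, SE 0.22, adjusted p = 0.311). Of the ribosomal protein genes, 33 of the 33 in the table passed the low-count filter. Ribosomal protein members called were 0 higher and 0 lower, with 33 not called and a median log2 fold change of −0.26 in null cultures, against 0 higher, 0 lower and a median of 0.077 in the wild type interval. The members of lowest p were Rpl30 (−0.61, SE 0.21, adjusted p = 0.11) and Rpl6 (−0.57, SE 0.22, adjusted p = 0.149), and pseudogenes may share reads with this list. Unadjusted p-values under 0.05 in edgeR numbered 4 in the ribosomal list and 0 in the respiratory chain list. Over all 15819 genes tested they numbered 3410. DESeq2 called 0 of either list. Of the 33 ribosomal genes 29 had a negative log2 fold change, as did 20 of the 33 respiratory chain genes. Over all genes tested 8020 did. Of the ATF4 stress and serine synthesis genes, 24 of the 24 in the table passed the low-count filter. ATF4 stress and serine synthesis members called were 2 higher and 0 lower, with 22 not called and a median log2 fold change of 0.0068 in null cultures, against 2 higher, 0 lower and a median of 0.058 in the wild type interval. These were the folate enzyme Aldh1l2 (2.20, SE 0.28, adjusted p = 0.000667) and Nupr1 (1.90, SE 0.41, adjusted p = 0.0135). Of the immediate early genes, 16 of the 20 in the table passed the low-count filter. Immediate early members called were 2 higher and 0 lower, with 14 not called and a median log2 fold change of 0.28 in null cultures, against 1 higher, 0 lower and a median of −0.28 in the wild type interval. These were Zfp36, which marks mRNAs for decay (1.15, SE 0.19, adjusted p = 0.00353), and Ier3 (1.52, SE 0.40, adjusted p = 0.035). Nupr1 (1.80, adjusted p = 0.0598) no longer passed without null day 14 replicate 2. Ier3 passed, of the 8 fits without 1 library of days 8 and 14 that tested it, in those without wild type day 14 replicate 1, wild type day 14 replicate 2 or null day 14 replicate 1 (log2 fold changes 0.97 to 1.69, adjusted p = 0.0522 to 0.274 in the others). The ribosomal protein list had 7 lower without null day 8 replicate 2. The mitochondrial respiratory chain list had 1 higher without null day 8 replicate 2 and 1 lower without null day 8 replicate 1 or null day 8 replicate 2. The ATF4 stress and serine synthesis list had 1 higher without null day 14 replicate 2.

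The same interval in wild type cultures shared much of this course. There 390 genes were higher at day 14 (2.47%) and 249 lower (1.57%), 639 in all (4.04%). Both genotypes called 405 genes in the same direction, 269 higher and 136 lower, which is 33.3% of the null calls and 63.4% of the wild type calls. Of the 1217 null calls 1168 had the same sign in wild type. The count of wild type calls depended on its libraries and was 108 to 309 without 1 of the 4 wild type libraries, so calls in null cultures that are missing in wild type do not by themselves show a difference.

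The test of the difference between genotypes in the day 14 to day 8 change called 0 genes in edgeR, with 962 genes at an unadjusted p under 0.05 (6.08%) and 8 calls in DESeq2. Ttn had the lowest p, followed by Cd180, Smyd1 and Scel. Cd180, a Toll-like receptor relative of B cells and macrophages, was at 14.1 and 9.89 CPM at day 14, against 0.242 and 0.288 CPM at day 8 (45.1-fold higher, counting interval 12.1 to 378, adjusted p = 0.000498) in null cultures. In wild type cultures it was at 14.3 and 12.8 CPM at day 14, against 20.1 and 12.1 CPM at day 8 (adjusted p = 0.0731 for a difference of 5.59 in log2 fold change, SE 0.79). Scel in wild type cultures was at 34.98 and 33.9 CPM at day 14, against 28.7 and 11.6 CPM at day 8 (adjusted p = 0.388 for a difference of 2.87 in log2 fold change, SE 0.54). Of the mitosis genes 22 of 35 had an unadjusted p under 0.05 for the difference, of the sarcomere genes 15 of 30, of the interferon genes 12 of 27, of the macrophage genes 7 of 22 and of the erythroid genes 4 of 17, and 0 of these lists' members passed after adjustment. Mki67, for example, was at 735 and 727 CPM at day 14, against 1060.2 and 1019.9 CPM at day 8 in wild type cultures (log2 fold change −0.51, adjusted p = 0.0796), a change that did not pass there, and the difference from null cultures did not pass either (adjusted p = 0.388 for a difference of −1.001 in log2 fold change, SE 0.21).

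**Figure D5:**
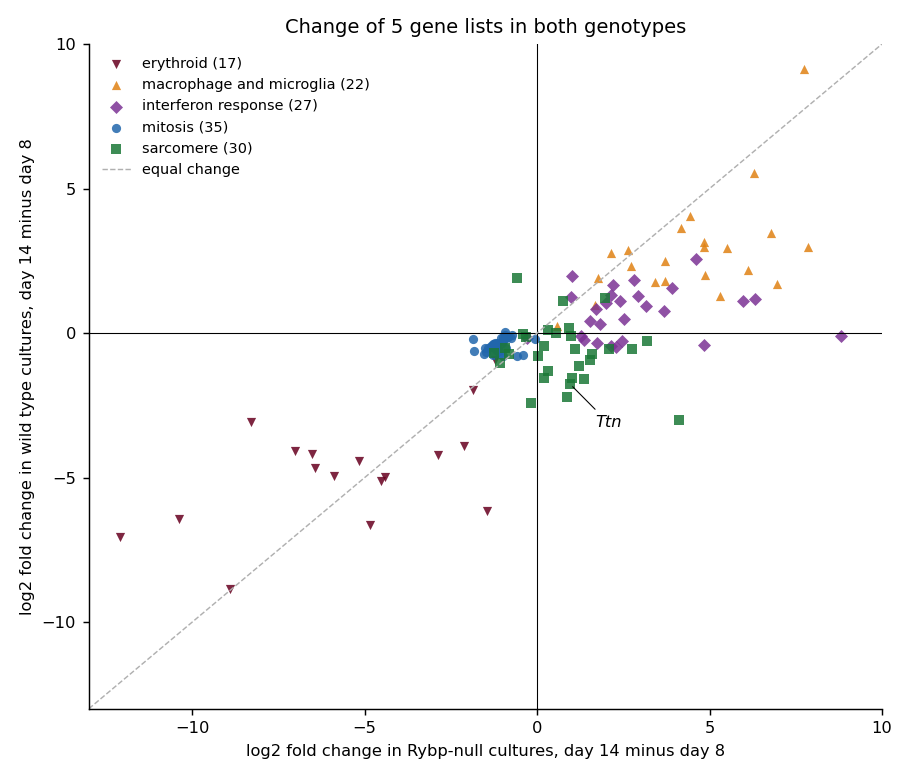
Log2 fold change of day 14 minus day 8 in Rybp-null cultures (x axis) and in wild type cultures (y axis) for the tested members of 5 gene lists; the dashed line marks equal change. Mitosis genes cluster below 0 on the x axis and nearer 0 on the y axis, and several sarcomere genes, Ttn among them, lie above 0 in null and below 0 in wild type cultures, while the test of the difference called 0 genes.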

How the data were processed

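The authors deposited 1 table of read counts per gene for 10 libraries of mouse cells, made, per the labels' protocols, from TRIzol-extracted total RNA with NuGEN kits (Ovation, then Encore). The submitters' processing notes name TopHat, HTSeq, DESeq and the build mm9, with no versions given in the sources used here. The strand setting of the counting is also not given, so reads of overlapping or antisense genes, and of near-identical copies, may be shared. Of the 36191 genes deposited, 30946 carry a symbol, and 0 sample columns were left unused.

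Deposited counts of all 10 libraries were tested with edgeR 4.0.16 in R 4.3.3 by the quasi-likelihood test (filterByExpr with a minimum count of 10, TMM scaling, robust fit) over 6 groups of genotype and day, with 4 residual degrees of freedom. The contrasts were day 14 minus day 8 in null cultures, the same in wild type cultures, and their difference. The biological coefficient of variation was 0.214. Adjusted p-values are Benjamini-Hochberg values over the 15819 genes tested, and called means an adjusted p under 0.05. CPM use the TMM-scaled library sizes. Where a group had 0 counts in both libraries the fold is given as a bound, with that group set to 3 counts in total, which was 0.395 CPM at day 14 and 0.394 CPM at day 8 in null cultures. With 1 to 3 counts in a group it is the ratio of pooled CPM with its exact 95% counting interval, which covers counting error only. SE is the standard error of the log2 fold change, taken from the test statistic. In parentheses a value without a name is a log2 fold change.

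Genes were named from 41 lists of gene groups, from the lowest p in each list, and from the lowest p and largest fold changes over all genes; list members described beyond these are called members. The members, lists and rules were chosen with earlier results of these data known. Promoter sequences come from a RefSeq table on GRCm38.p6, matched by symbol, and no coordinates were converted. Alternatives were another scaling (RLE), other low-count filters, DESeq2 1.42.0, fewer libraries, a replicate block and leaving out each library of days 8 and 14. Some named genes are not reported here.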

Additional observations from a re-analysis of the deposited data

How the results depend on the processing

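The 1217 calls between day 14 and day 8 in null cultures became 1892 without the low-count filter, 555 when only the 4 null libraries entered the fit, and 526 against a fold of 1.5 (glmTreat); with either of the last settings 65.8% were higher, against 55.7% in the fit described above. RLE scaling gave 1213, a minimum count of 30 gave 1220, DESeq2 gave 1055, days 8 and 14 alone gave 1288 and a fit that is not robust gave 1214. Leaving out 1 library of days 8 and 14 at a time gave 613 to 1243 calls in null cultures, 108 to 935 in wild type cultures and 0 to 2 for the difference between genotypes. The 639 calls in wild type cultures became 1244 without the filter. The 0 calls for the difference became 65 without the filter and 8 in DESeq2. Among lists, the fit of only the 4 null libraries called 15 of 35 mitosis genes and 12 of 15 erythroid genes lower. It called 12 of 16 macrophage and microglia genes, 9 of 22 interferon response genes and 6 of 31 matricellular genes higher. With the replicate number as a replicate block, the calls were 929 in null cultures, 507 in wild type cultures and 0 for the difference. Same-numbered null libraries of day 14 and day 8 had deviations that correlated at −0.21, so the numbers were not taken to pair them. A crossed pairing, chosen after seeing the data, gave 1158, 661 and 0 calls. No gene called and named above changed its sign in an alternative, leaving aside Postn, which was not followed there. Myh6 (−0.65 without null day 14 replicate 1) and Yaf2, neither of them called, did change sign. The median log2 fold change of all genes lay between −0.033 and 0.022 in all of the alternatives. With 2 libraries a group and 3311037 to 4164476 counts in each null library, genes near 1 CPM rest on a handful of counts, and a difference that was not called may have been missed.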

Other observations

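Within a day, replicates differed together for several gene lists. At day 14 null replicate 1 was above replicate 2 for 15 of the 15 trophoblast genes tested, 22 of the 23 epithelial identity genes, 24 of the 27 interferon genes, 22 of the 26 glycolysis and hypoxia genes, 18 of the 21 visceral endoderm and liver genes and 17 of the 20 endothelial genes. Replicate 2 was above replicate 1 for 23 of the 31 matricellular genes, 26 of the 35 IGF, FGF and PDGF genes and 21 of the 27 Hox genes. Over all genes tested replicate 1 was higher for 7682 (48.6%). At day 8 null replicate 1 was above replicate 2 for 21 of the 26 collagen genes and 14 of the 17 smooth muscle contractile genes, but for 2 of the 21 visceral endoderm and liver genes.

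Germ cell markers were at 22.8 and 19.3 CPM in sum in null libraries at day 14, against 36.3 and 55.5 CPM at day 8. In wild type libraries they summed to 2.13 and 2.55 CPM at day 14, against 0.639 and 0.564 CPM at day 8.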
